A study of Caenorhabditis elegans with 2 samples.

Results

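The his- genes of Caenorhabditis elegans encode the histones that package DNA, and are described here for their place in ChIP-seq peak lists of the tagged protein C34F6.9 in second-stage larvae. Members were the protein-coding genes whose symbol in the Ensembl annotation of the WBcel235 assembly is his- followed by a number. The rule gave 72 genes of 19973 protein-coding genes outside the mitochondrial genome. Members within 5 kb of each other were joined into a cluster, which placed 67 genes in 14 clusters and left 5 single genes. The genes fell into 21 for histone H3, 17 for H2A, 17 for H2B, 16 for H4 and 1 for the linker histone H1.

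Chromatin was immunoprecipitated from whole L2 larvae of strain OP324, genotype unc-119(ed3) III with the transgene wgIs324, which carries C34F6.9 fused to eGFP. Animals were not separated by sex, and the single group had 2 biological replicates. Both replicates share the unc-119 mutation and the transgene, no untagged group was compared here, and the sources used here do not give the promoter that drives the fusion. Deposited lists were used for each replicate, for both replicates pooled (30000 peaks and background regions in each of these lists) and for the optimal set of 5692 peaks that passed the reproducibility threshold. The signal of a peak is the authors' own value and was ranked only within its list, rank 1 being the highest. Sequencing depth is unknown, because read counts are not part of these lists. A gene was scored by the nearest summit within 500 bp of a 5′ end.

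The core histones H2A, H2B, H3 and H4 form the nucleosome, and H1 binds the DNA between nucleosomes. In animals, replication-dependent histone genes are short, lack introns, are transcribed in S phase, and end their mRNA in a conserved 3′ hairpin in place of a poly(A) tail. Replacement variants such as H3.3 are made throughout the cell cycle, usually from genes with introns and polyadenylated mRNA. Core histone genes often lie in divergent pairs, H2A beside H2B and H3 beside H4, with the promoters in the short gap between them.

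The working name "replication-dependent histone genes" did not hold for every member. A perfect hairpin, with a stem of 6 bases that starts with GG and a loop of 4 bases, lay within 100 bases after the stop codon in 56 of the 72 genes and in 67 of all 19973 coding genes. All 56 lacked introns. The hairpin of his-1, an H4 gene, is shown with its stem in capitals, from the plus strand at V:16042874-16042889.
his-1: GGCCCTctttAGGGCC
Another 7 genes had introns in every transcript and no such hairpin. They were the H1 gene his-24, the H2A gene his-35, the H2B gene his-41, the H4 gene his-37 and the H3 genes his-71, his-72 and his-74. Neither feature was found in the other 9 genes, his-19, his-39, his-47, his-53, his-57, his-68, his-69, his-70 and his-73. The 72 genes are therefore called his- genes below.

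The sequences at 7 of the 8 optimal peaks that hold the nearest summit of a his- gene are shown because they are the DNA under the strongest part of each peak. Each runs 60 bases to either side of the summit on the plus strand of WBcel235 (RefSeq copy), in order of falling peak signal, and the his-24 window stops before the annotated transcript. The windows are, in order, V:9546943-9547063, V:9545411-9545531, III:12369100-12369220, X:14490000-14490093, IV:7486343-7486463, IV:8334078-8334198 and X:7982226-7982346. Capitals mark TATAAA and a 12-letter pattern, TGTCCC then any base then GCAGG, on either strand.
his-37: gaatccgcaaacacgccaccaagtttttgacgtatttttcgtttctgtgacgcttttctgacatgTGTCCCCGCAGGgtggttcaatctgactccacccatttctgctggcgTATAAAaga
his-35 and his-41: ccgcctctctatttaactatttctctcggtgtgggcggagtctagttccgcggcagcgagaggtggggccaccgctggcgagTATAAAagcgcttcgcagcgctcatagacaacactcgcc
his-72: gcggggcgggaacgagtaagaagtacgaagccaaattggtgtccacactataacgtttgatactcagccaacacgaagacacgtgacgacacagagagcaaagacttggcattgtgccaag
his-24: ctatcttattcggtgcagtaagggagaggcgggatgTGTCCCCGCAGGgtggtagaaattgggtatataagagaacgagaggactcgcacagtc
his-61 and his-62: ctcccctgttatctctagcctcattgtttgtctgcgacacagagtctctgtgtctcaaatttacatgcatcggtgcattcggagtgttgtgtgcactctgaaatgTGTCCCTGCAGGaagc
his-31 and his-32: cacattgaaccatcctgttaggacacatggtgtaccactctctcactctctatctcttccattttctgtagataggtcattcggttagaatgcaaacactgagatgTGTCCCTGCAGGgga
his-71: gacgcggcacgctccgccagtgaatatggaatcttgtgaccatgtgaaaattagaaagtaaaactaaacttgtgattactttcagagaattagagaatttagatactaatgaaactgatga

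The second set shows upstream sequences of H3 genes chosen as a unique copy and 2 families of identical copies. Each line gives 80 bases upstream of an H3 gene, on the gene's strand, ending 40 bases before the start codon. The places are, in order, V:8535018-8535097, V:8847823-8847902, V:8889918-8889997, II:13823528-13823607, II:13820090-13820169 and II:13825300-13825379, with his-6 and his-25 on the minus strand. A letter is a capital where the window of 36 bases that starts there occurs once in the genome.
his-6: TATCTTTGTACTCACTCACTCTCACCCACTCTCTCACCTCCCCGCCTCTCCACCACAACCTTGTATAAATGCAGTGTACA
his-49: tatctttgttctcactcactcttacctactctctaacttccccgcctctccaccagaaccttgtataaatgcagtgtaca
his-27: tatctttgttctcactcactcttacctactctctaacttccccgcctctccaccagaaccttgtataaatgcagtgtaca
his-9: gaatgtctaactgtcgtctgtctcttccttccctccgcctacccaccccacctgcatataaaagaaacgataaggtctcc
his-13: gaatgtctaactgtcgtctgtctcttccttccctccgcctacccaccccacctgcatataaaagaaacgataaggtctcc
his-25: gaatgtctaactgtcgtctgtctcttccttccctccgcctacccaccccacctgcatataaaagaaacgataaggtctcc
The his-6 sequence was unique at all 80 positions. The his-49 and his-27 sequences, from different clusters on chromosome V, were identical at 80 of 80 positions and shared 74 of 80 bases with his-6. The his-9, his-13 and his-25 sequences from the chromosome II cluster were likewise identical at 80 of 80 positions. None of these 5 held a unique position. Copies from different families shared fewer bases at equal positions, 21 of 80 between his-49 and his-9. The same stretches of his-32 and his-40, which were wholly unique, shared 17 of 80 bases with each other at equal positions. With the sequences shown they shared 20 to 33 of 80. All these counts were made without alignment, so a shift between 2 sequences lowers them. The his-40 stretch closely resembles that of his-6 once shifted along, although only 20 of 80 bases matched at equal positions.

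Optimal peaks lay beside a minority of the his- genes, at a share close to that of all coding genes. Of the 72 his- genes, 12 (16.7%, 95% Wilson interval 9.80% to 26.9%) had an optimal summit no more than 500 bp from a 5′ end, against 3400 of 19973 coding genes (17.0%). Counted by the nearest summit of each gene, these 12 genes shared 8 peaks, called the his- peaks below. The genes are therefore not independent, and the intervals cover counting error only. In the pooled list 15 his- genes (20.8%) had a summit, against 36.9% of all coding genes. The full list of replicate 1 also gave 15 his- genes, against 36.8% of coding genes, and that of replicate 2 gave 18, against 38.6%. All 12 genes of the optimal list had a summit in both replicate lists. Optimal peaks were chosen for reproducibility between the replicates, so this is no separate sign of agreement. When each replicate was cut to its 5692 highest peaks, replicate 1 gave 12 his- genes against 17.1% of coding genes, and replicate 2 gave 11 against 16.7%. The other 53 his- genes had no summit within 500 bp in any of the 4 lists.

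Clustered genes with an optimal summit numbered 9 of 67 (13.4%, interval 7.23% to 23.6%), and single genes 3 of 5 (60%, interval 23.1% to 88.2%). Over all coding genes the share was 17.0%. With 5 single genes no difference between the kinds was tested. The kinds also differ in repeated sequence, described below. At each of the 5 single genes, 80.02% or more of the 36-base windows around the 5′ end occur once in the genome. All 40 his- genes with under 25% such windows were clustered, so the 2 shares do not compare like with like. The classes were spread over the 12 genes, with 3 of 21 H3 genes, 3 of 17 H2A genes, 2 of 17 H2B genes, 3 of 16 H4 genes and the only H1 gene.

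The his- genes with and without peaks differed in how much of their DNA occurs once in the genome. Around each 5′ end, the percentage of 36-base windows within 500 bp that occur once had a median of 9.44% over the 72 his- genes, against 100% over all coding genes. It was under 25% at 40 his- genes (55.6%), against 321 coding genes (1.61%), and was exactly 0 at 25 his- genes. None of those 40 his- genes had an optimal, pooled or replicate summit, which allows a share of up to 7.5%. Among all 321 coding genes in that range, 0% had an optimal summit and 0.935% a pooled one, all 3 of these outside the his- genes.

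Between 25% and 75% unique sequence, none of 11 his- genes had an optimal summit, against 4.17% of coding genes in that range. In the same range 2 of the 11 had a pooled summit, against 11.3%. At 75% or more, 12 of 21 his- genes had an optimal summit (57.1%, interval 36.5% to 75.5%), against 17.9% of coding genes, and 13 of 21 a pooled one, against 38.6%. The 12 genes with an optimal summit had 78.0% to 100% unique windows. The sources used here do not say how reads with several matches were treated before peak calling, and the part of repeated sequence in the missing peaks was not tested.

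**Figure D1:**
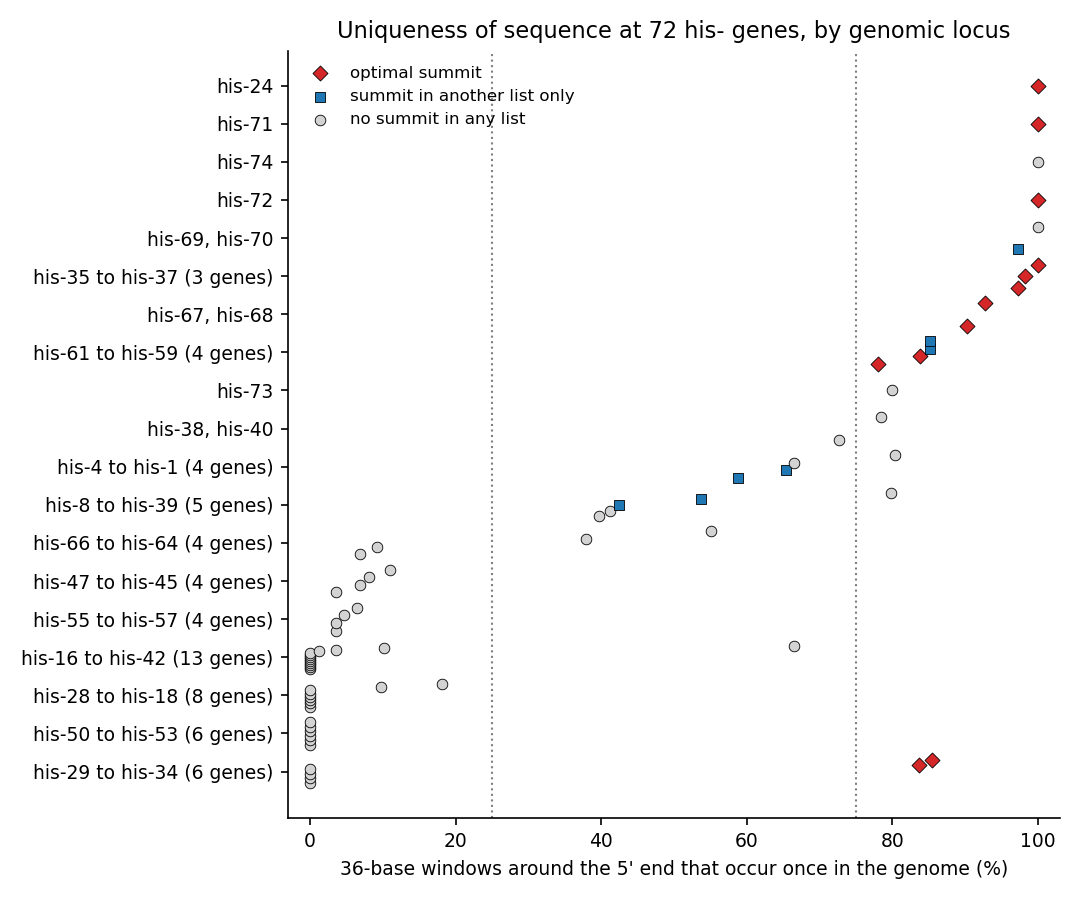
Each point is 1 of the 72 his- genes, placed by the percentage of 36-base windows within 500 bp of its 5′ end that occur once in the genome, with rows for the 19 clusters and single genes and dotted lines at 25% and 75%. All 12 genes with an optimal summit lie right of the line at 75%, and all 40 genes left of the line at 25% have no summit within 500 bp in any list.

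**Figure D2:**
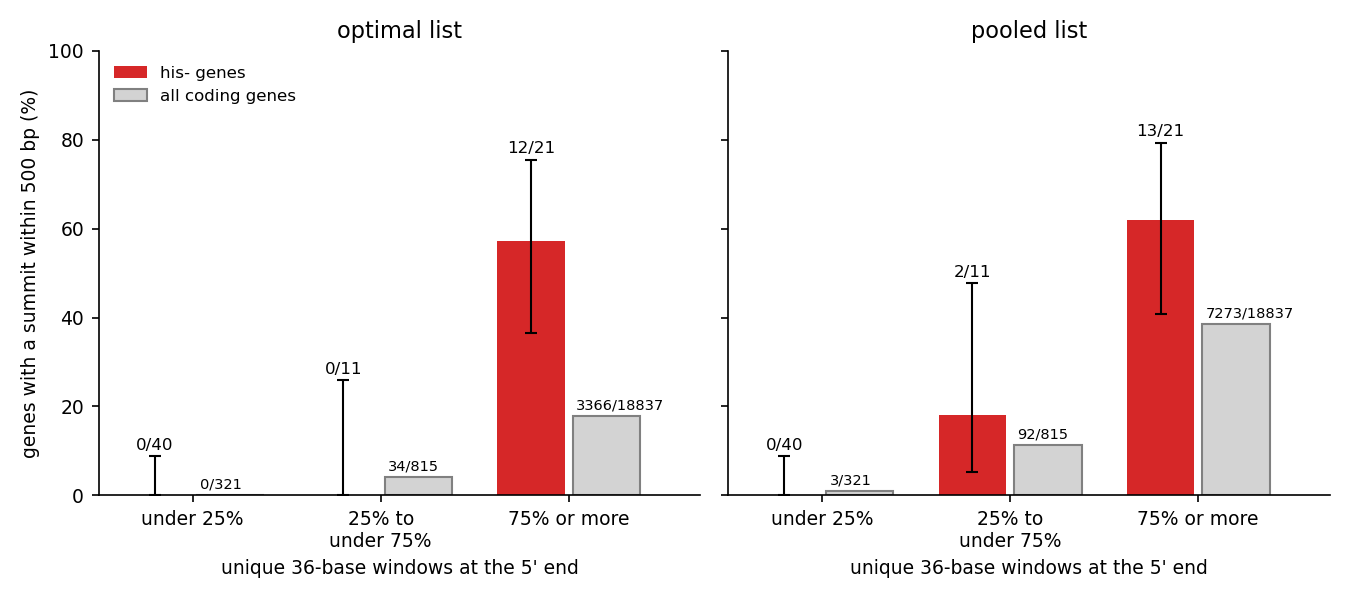
Bars give the percentage of genes with a summit within 500 bp of a 5′ end, for his- genes beside all coding genes in 3 ranges of unique sequence, in the optimal and the pooled list. Error bars are 95% Wilson intervals for his- genes, and the counts stand above the bars; in the range of 75% or more, 12 of 21 his- genes had an optimal summit against 17.9% of coding genes.

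The H4 gene his-37 (WBGene00001911, V:9547105-9547607, plus strand) had the highest peak of the family. Its summit at V:9547003, 102 bp upstream, ranked 8 in the optimal list with a signal of 834.131. Replicate 1 ranked it 16 (signal 462.128) and replicate 2 ranked it 9 (signal 374.737), with summits 12 bp and 2 bp from the pooled summit. The his- peak next in signal ranked 1029. The median signal of the optimal list was 112.699, and the median rank of the 8 his- peaks was 1871.5 of 5692.

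Beside his-37 lies the divergent pair of the H2A gene his-35 and the H2B gene his-41, in the same cluster (V:9544659-9547607). One summit in their gap, at V:9545471, ranked 1508 in the optimal list, 1310 in replicate 1 and 1840 in replicate 2. It lay 183 bp upstream of his-35 and 65 bp upstream of his-41. All 3 genes of this cluster have introns and lack the hairpin, and all 3 had an optimal summit.

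The replacement H3 genes differed among themselves. At his-72 (WBGene00001946), which encodes H3.3, the summit III:12369160 lay 110 bp upstream and ranked 1566 in the optimal list, 1671 in replicate 1 and 1031 in replicate 2. A further optimal summit of rank 4375, at III:12368574, lay inside the gene, 410 bp from a different annotated 5′ end of his-72. At his-71 (WBGene00001945), also an H3.3 gene, the summit X:7982286 lay 216 bp upstream and ranked 4788 in the optimal list. Replicate 1 ranked it 3910, and replicate 2 ranked it 8590 with a −log10 q of 1.57, below the replicate's ceiling of 4.06. It was the lowest of the 8 his- peaks, and the only one outside the 5692 highest peaks of a replicate.

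At his-74, an H3 gene with introns, the nearest optimal summit lay 733 bp downstream, outside the window, although all of its sequence was unique. The H3 gene his-69 had its nearest optimal summit 670 bp downstream. A pooled summit 471 bp downstream of the his-69 5′ end ranked 9534 in the pooled list, with a −log10 q of 1.14. All 3 of these summits lay past the 3′ end of the gene. That region was listed in replicate 1 at rank 14750, and replicate 2 had no summit within 500 bp. Its neighbour his-70 had no summit within 500 bp in any list, again with 100% unique windows. The short H3 gene his-73, with 80.02% unique windows, had none either.

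The linker histone gene his-24 (WBGene00001898, X:14490094-14491119, plus strand) had its summit at X:14490060, 34 bp upstream and the closest of all to a 5′ end. It ranked 2177 in the optimal list, 2542 in replicate 1 and 1753 in replicate 2.

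Of the 56 genes with the hairpin and no introns, 5 had an optimal summit (8.93%), against 14.2% of coding genes with a transcript of 1 exon. Of the 7 with introns and no hairpin 6 had one, his-74 being the exception, against 17.2% of coding genes with introns in every transcript. Of the 9 with neither feature, his-68 had one. All 7 genes with introns had 97.3% or more unique windows. Among the 9 hairpin genes with at least 75% unique windows, 5 had an optimal summit, against 17.9% of coding genes in that range.

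The hairpin genes with an optimal summit, and his-68, lay at 3 divergent pairs. At his-67 (H4) and his-68 (H2A) on chromosome I, the shared summit I:9988990 ranked 1029 in the optimal list, 1298 in replicate 1 and 799 in replicate 2. At his-61 (H2A) and his-62 (H2B), the summit IV:7486403 ranked 2554 in the optimal list, 3072 in replicate 1 and 2036 in replicate 2. At his-31 (H4) and his-32 (H3), the summit IV:8334138 ranked 4038 in the optimal list, 4828 in replicate 1 and 3462 in replicate 2. Each of these peaks belongs to both genes of its pair, and the lists cannot assign it to one of them. The his-31 and his-32 peak was the only one of the 8 whose interval was not wholly unique, at 87.4% of its windows.

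**Figure D3:**
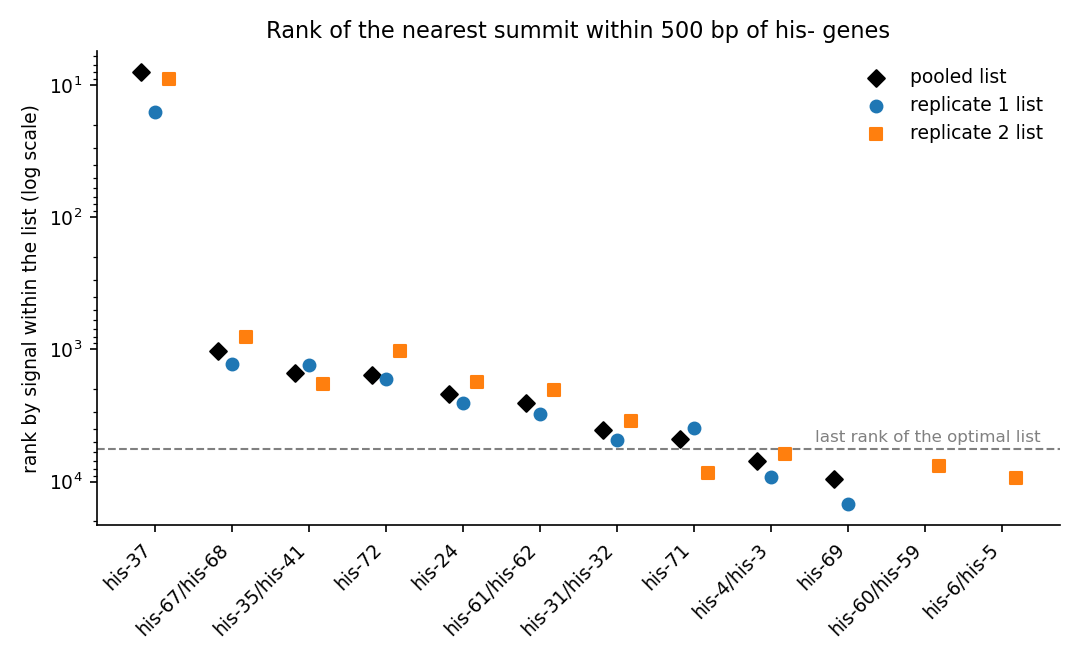
Rank of the nearest summit within 500 bp of his- genes in the pooled list and in each replicate's list, on a log axis with the highest rank at the top; genes that share a summit share a column and the dashed line is the last rank of the optimal list. The his-37 peak, at rank 8, 16 and 9, stands apart from the other 7 optimal peaks, which rank from 1029 to 4788 in the pooled list.

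All 12 nearest optimal summits at his- genes lay upstream, from 227 to 34 bp before the 5′ end, with a median position of −148.5 bp. Over all 3400 coding genes with an optimal summit, 90.5% lay upstream, with a median position of −168 bp. The annotated 5′ end was the start codon for most his- genes, since only 8 of 72 have an annotated 5′ UTR. The replicate summits lay 0 to 63 bp from the pooled ones, the largest shift being at his-72 in replicate 1. No other coding gene had a 5′ end within 500 bp of any of the 8 summits.

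**Figure D4:**
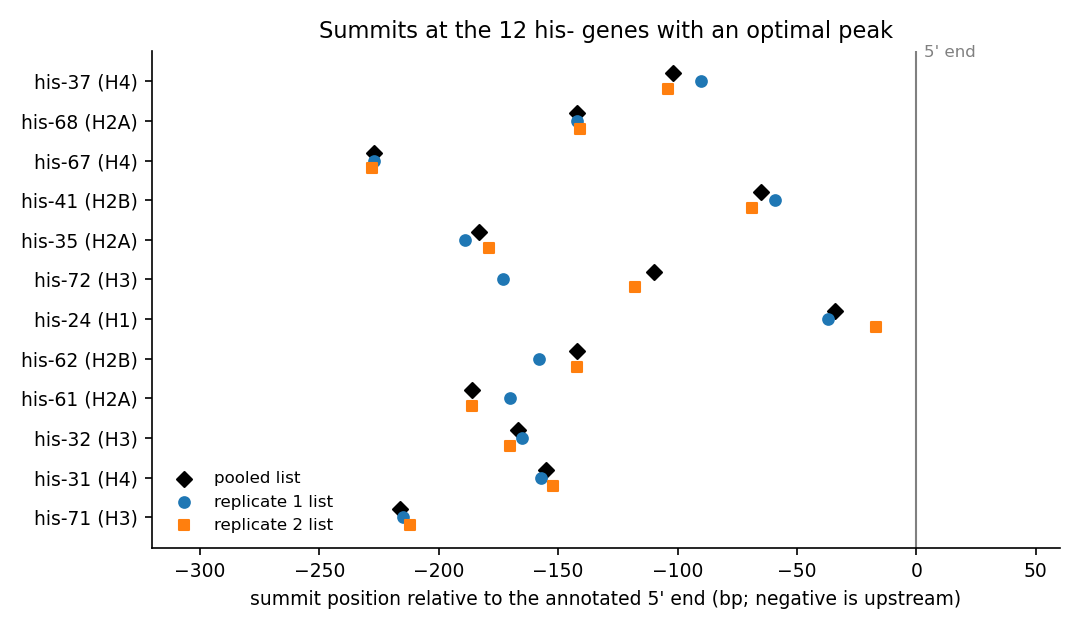
Position of the nearest summit relative to the annotated 5′ end, in bp with upstream negative, at the 12 his- genes with an optimal peak, from the pooled list and each replicate's list. Every point lies upstream, and the pooled summits run from −227 bp at his-67 to −34 bp at his-24.

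Of the 72 genes, 31 divergent pairs were formed, 16 of H2A with H2B, 14 of H3 with H4 and 1 of H2A with H4 (his-67 and his-68). Their gaps were 227 to 368 bp long, with a median of 258 bp. In 17 pairs the whole gap had an exact copy elsewhere in the genome, and in 20 pairs under 25% of its windows were unique. None of those 20 gaps held a summit in any list. The other 11 gaps were 80.5% to 100% unique, and 4 of them held an optimal summit. In these 4 the summit lay 6 to 59 bp from the middle of the gap.

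The remaining 7 unique gaps showed weaker regions or none. The gap of his-3 (H2A) and his-4 (H2B), 91.8% unique, held a pooled summit of rank 6953 with a −log10 q of 2.49, at rank 9218 in replicate 1 and 6205 in replicate 2. Replicate 2 alone listed a summit at his-59 (H3) and his-60 (H4), rank 7578, and at his-5 (H4) and his-6 (H3), rank 9397, with −log10 q of 2.04 and 1.32. No list held a summit at his-63 with his-64, his-7 with his-8, his-1 with his-2, or his-38 with his-40, although the last gap was 100% unique. Of the 11 unique gaps, 4 thus had an optimal peak, 1 a pooled region, 2 a region in replicate 2 alone and 4 no region.

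By cluster, the optimal genes came from 4 of 14 clusters. These were his-67 and his-68 on chromosome I, his-61 and his-62 of the cluster his-59 to his-62, his-31 and his-32 of the 6-gene cluster his-29 to his-34, and the cluster of his-35, his-37 and his-41. The largest cluster (II:13817760-13828697) holds the 13 genes his-9 to his-16, his-25, his-26 and his-42 to his-44, with 7.34% of its windows unique. No list had a summit within 500 bp of a 5′ end there, and the nearest pooled summit was 557 bp from his-42. On chromosome V, the cluster of his-49 to his-54 (V:8847393-8854053) had 0% unique windows, and its nearest pooled summit lay 44071 bp away. The cluster of his-17 to his-22, his-27 and his-28 (V:8889488-8898539) had 1.07% unique windows and no summit.

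Another 3 clusters on chromosome IV had no summit within 500 bp of a 5′ end in any list. They were his-45 to his-48 (3.57% unique), his-55 to his-58 (24.6%) and his-63 to his-66 (69.7%). The X cluster of his-38 and his-40 (70.95%) had none so close either, its nearest summit being 802 bp from a 5′ end in replicate 2. In all, the 41 genes of 7 clusters had no summit within 500 bp in any list. The span of the chromosome II cluster did hold summits farther from a 5′ end, 1 in the pooled list and 1 in replicate 2. On X, the replicate 2 summit lay outside the cluster, less than 500 bp past its end. The other 3 clusters held regions below the optimal threshold, his-1 to his-4, his-5 to his-8 with his-39, and his-69 with his-70. Over the 60 his- genes without an optimal summit in the window, the nearest one lay 670 to 79643 bp away, with a median of 7947 bp.

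The 12-letter pattern marked in the printed windows was noticed in these same sequences, so its counts at the his- peaks are a description and no test was made. Within 100 bp of the summit it was found at 5 of the 8 his- peaks (his-37, his-24, his-61 with his-62, his-31 with his-32, and his-67 with his-68), against 10 of all 5692 optimal peaks with the his- peaks included (0.176%). It lay 10 bp from the summit at his-37, 19 bp at his-24, 50 bp at his-61 with his-62 and 51 bp at his-31 with his-32. The gap of his-67 with his-68 held 3 sites, at 9, 46 and 108 bp from its summit. In promoters of 300 bases, 250 before and 50 after the 5′ end, 8 of 72 his- genes held it, against 11 of 19973 coding genes with those 8 included (0.0551%). All 8 had an optimal summit, and they are the genes at the 5 peaks named above, so this count is not separate from the first. Among the 31 gaps, 3 held the pattern, and these were 3 of the 4 with an optimal summit. The gap of his-35 with his-41, which also had an optimal summit, lacked it, as did the windows of his-71 and his-72.

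A shorter run, ATGTGTCCC, which overlaps the start of the pattern, was more widely shared. It too was chosen after the summit sequences were seen. It was in 20 of the 31 gaps, most of them without a summit, and in 43 of 72 his- promoters, against 71 of 19973 coding promoters with the his- genes included (0.355%). The his- promoters are not independent sequences, since those of a divergent pair overlap and 17 of the 31 gaps have an exact copy elsewhere. The gaps with the run and no summit in any list all had under 25% unique windows, where no gap held a summit. In gaps with 75% or more, those with the run all held a summit in some list. At his-59 with his-60 and his-5 with his-6 it was in replicate 2 alone, with −log10 q of 2.04 and 1.32. Such gaps without any summit lacked the run, as did the gap of his-35 with his-41, which had an optimal summit. Since the run was picked from his- summit sequences, its match with gaps that hold summits is partly fixed by that choice and is no support for a link. The full pattern occurs at 49 places in the genome. Of the 42 that lie over 500 bp from any his- 5′ end, 6 were within 100 bp of an optimal summit (14.3%), while 1.14% of the genome lies that close to one. The sites at II:13016572 and II:13016635 lay at the same peak, of rank 3020, so the 6 sites are not independent. The shorter run had 24 sites within 500 bp of a his- 5′ end, 5 of them within 100 bp of an optimal summit. Of its 375 other sites, 12 were that close (3.2%). The genome share is taken over all positions, in promoters or not, so it is no promoter background. No test was made.

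The TATA box, TATAAA on either strand, was in 5 of the 8 windows of 201 bases at the his- summits, against 14.0% of the windows at all optimal summits. It was in 47 of 72 his- promoters (65.3%), against 37.9% of coding promoters. Among the 12 his- genes with an optimal summit, 8 promoters held it. CCAAT was in 3 of the 8 summit windows, against 29.7% of all, and in 39 of 72 his- promoters, against 45.5%. GAGAGA was in 3 of the 8 summit windows, against 45.3% of all, and in 33 of 72 his- promoters, against 21.8%. Here too the 72 his- promoters include overlapping and identical sequences, so these counts are not of independent promoters.

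Genes that encode other histones, or that supply and load histones, were read in the same lists. Both sets of genes were chosen with earlier results of these data known. Their shares and intervals are therefore a description and do not measure enrichment. Among 11 other histone genes, 4 had an optimal summit (36.4%, interval 15.2% to 64.6%), against 17.0% of coding genes. They were htz-1, which encodes H2A.Z, at rank 125, the H1 genes hil-7 (rank 659) and hil-3 (rank 2768), and hcp-3, the centromeric H3, at rank 2887. The H1 gene hil-2 had a pooled summit of rank 6486, and the other 6 had none. Among 13 genes of histone supply, 9 had an optimal summit (69.2%, interval 42.4% to 87.3%), against the same 17.0%. The chaperone genes lin-53 (rank 109), nap-1 (694), hira-1 (1288) and chaf-2 (1336) ranked highest, followed by hmg-4 (1792), unc-85 (2207), chaf-1 (2355), cdl-1 (3356) and spt-16 (4158). The cdl-1 product binds the 3′ hairpin of histone mRNA. No pooled summit lay within 500 bp of asfl-1, hmg-3, rba-1 or xnp-1. All genes of both lists had at least 82.8% unique windows. Of coding genes with 75% or more, 17.9% had an optimal summit.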

How the data were processed

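Peak lists came from eGFP ChIP-seq in 2 biological replicates of 1 group. Per the deposited listing of files, each replicate's list was called on its own alignments with a control, and the pooled list on the alignments of both. The optimal list holds the pooled peaks that passed IDR, a test of reproducibility between replicates, per the same listing. The sources used here do not name the aligner, the peak caller, the read length or the handling of reads with several matches. Signal is the authors' deposited value for each peak and served only for ranks inside a list. The −log10 q-values and the summit offsets were used as deposited, and every optimal peak holds the highest −log10 q, 4.07. Lists on the older build were not used. With 1 group no test was made, and the spread between replicates may be technical.

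Coordinates are 1-based on ce11, with the chromosome lengths of WBcel235. Coding transcripts, 5′ ends and introns came from Ensembl release 115, and symbols, product names and sequence from RefSeq. Ensembl gives the 72 genes 50 symbols, with repeats, so the RefSeq symbol of the same WormBase ID was used, which matched all 72. Histone class came from the RefSeq product or, for his-24, his-39 and his-73, from the most similar protein. A 36-base window counted as unique if it occurs once on both strands. Intervals are 95% Wilson intervals, and a count of 0 allows up to 3 counts. Distances and uniqueness were tested on simulated data. Python 3.11.15, pandas 2.3.3, scipy 1.17.1 and Biopython 1.88 were used.

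The genes named were all his- genes with an optimal summit, those with a pooled region only, the members of every cluster, the variants, and the members of both further lists with an optimal summit. The genes and lists were chosen with earlier results of these data known. Regions of replicate 2 alone, pairs without a summit, the 12-letter pattern and the shorter run were added after their values were seen. Windows of 250 and 1000 bp, other peak and cluster rules and other window lengths were tried.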

Additional observations from a re-analysis of the deposited data

How the results depend on the processing

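The 12 his- genes with an optimal summit became 4 where the peak interval had to cover the 5′ end, with 3 clustered and 1 single gene. Counting a summit only for its nearest coding 5′ end left 8 genes, 5 of them clustered, since a shared summit then counted for 1 gene of its pair. A window of 1000 bp gave 14, adding his-69 and his-74, whose summits lay past their 3′ ends. It raised the 15 genes with a pooled region to 23. Leaving out each replicate in turn gave 11 to 12 genes in all, 9 clustered (9 in both) and 2 to 3 single genes, and a median peak rank of 1796.5 to 2106.5; the gene lost without replicate 1 was his-71. The 2846 highest-signal peaks left 9, losing his-31, his-32 and his-71. Cluster distances of 2 and 10 kb left 9 clustered and 3 single genes. The mean percentage of unique windows, 36.1% with 36 bases, was 31.9% with 25 bases and 39.6% with 50, with 40 genes under 25% at each length. The sources used here do not state the read length, so which of these applies is unknown. Peaks near the threshold, such as that of his-71, depend on depth, which is unknown.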
